A study of Rattus norvegicus with 6 samples.

Results

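The AlkB family of dioxygenases, with Fto as its best known member, was described in RNA-seq data from neonatal rat cardiac fibroblasts (NRCFs), the collagen-making connective tissue cells of the heart grown in primary culture. Members were the rows named Fto and Alkbh1 to Alkbh8, which gave 9 genes among the 21857 gene symbols listed for each library. Cells came from the hearts of Sprague-Dawley pups taken within 3 days of birth according to the series' design text, while the sample labels give the strain as "Noway". They were transfected with a lipid reagent. The 3 Vector libraries, whose genotype label is WT, received the empty expression plasmid, and the 3 libraries labelled FTO overexpression received the same plasmid carrying rat FTO cDNA. All 6 libraries therefore came from transfected cells. None of the labels states whether the 3 libraries of a group came from separate cultures or litters, so that p-values measure the spread between these libraries, which may be technical. Reads from the chromosomal gene and from the plasmid cannot be told apart in counts given per gene symbol.

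AlkB proteins use iron, oxygen and 2-oxoglutarate to oxidise their substrates. In those that demethylate, the oxidised methyl group then leaves as formaldehyde. The family takes its name from a bacterial enzyme that repairs alkylated DNA, and its mammalian members act on mRNA, tRNA, DNA or protein. Fto and Alkbh5 are the RNA demethylases of N6-methyladenosine (m6A), the mark that a complex around Mettl3 and Mettl14 writes on mRNA, and in heart tissue Fto has been studied in contractile function and in fibrosis.

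The promoters of Fto, Alkbh5 and Alkbh8 are shown because Fto is the gene carried by the plasmid and the other members passed the test described further on. Each window is 300 bases from RefSeq on build GRCr8, from 250 bases before an annotated start of the gene to 50 after it, read 5′ to 3′ on the gene's own strand, and capitals mark every CG dinucleotide. All 9 members had such a window.

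Fto, chr19:31864868-31865167, minus strand: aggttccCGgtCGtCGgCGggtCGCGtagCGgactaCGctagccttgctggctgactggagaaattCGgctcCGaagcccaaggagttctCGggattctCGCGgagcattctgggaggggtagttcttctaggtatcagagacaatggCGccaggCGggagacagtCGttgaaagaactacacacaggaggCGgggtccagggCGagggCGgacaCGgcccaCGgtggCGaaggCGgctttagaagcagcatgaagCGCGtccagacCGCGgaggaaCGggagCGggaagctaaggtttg
Alkbh5, chr10:45844161-45844460, plus strand: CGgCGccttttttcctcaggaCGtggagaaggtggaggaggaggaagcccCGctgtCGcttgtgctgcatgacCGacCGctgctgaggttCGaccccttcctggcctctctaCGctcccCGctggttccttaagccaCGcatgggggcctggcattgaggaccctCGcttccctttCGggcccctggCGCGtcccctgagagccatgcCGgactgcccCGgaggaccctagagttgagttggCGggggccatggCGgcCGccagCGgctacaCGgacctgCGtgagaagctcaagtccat
Alkbh8, chr6:6195331-6195630, minus strand: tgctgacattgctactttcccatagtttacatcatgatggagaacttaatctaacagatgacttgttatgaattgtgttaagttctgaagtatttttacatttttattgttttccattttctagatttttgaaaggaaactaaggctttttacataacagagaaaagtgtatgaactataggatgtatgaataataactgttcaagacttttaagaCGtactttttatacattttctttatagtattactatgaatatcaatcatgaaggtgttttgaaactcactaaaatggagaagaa

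The Fto window held 29 CG dinucleotides at a GC content of 62.0%, and 88.5% of the 33469 rat promoter windows held fewer. In the Alkbh5 window there were 23 at 66.0% GC. The Alkbh8 window stood apart from those of its relatives, with 1 CG and 28.0% GC, against a median of 7 CG and 51.7% GC over all windows. It lies inside the span of a gene with several annotated transcripts, and which start these cells used was not measured. The other 6 members had between 12 and 21 CG dinucleotides. The letters ACGTG, the core of the hypoxia response element, or their reverse complement CACGT were found in the windows of Alkbh3, Alkbh4 and Alkbh5, which is 3 of 9 members, and in 19.3% of all windows. They were not found in the Fto window. The study reported potential hypoxia response elements in the rat FTO promoter, and mutated their ACGTG letters in a reporter construct. That construct reached further upstream of the start than the window used here. The absence therefore covers this window only, and sequence further upstream was not tested.

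Fto, the gene carried by the plasmid, was measured at nearly the same level in both groups. Values are counts scaled to library size with trimmed mean of M-values factors (CPM), and log2 fold changes are those of libraries labelled FTO relative to Vector. Fto stood at 87.8, 89.6 and 87.4 CPM in Vector replicates 1, 2 and 3, and at 93.2, 90.8 and 92.9 CPM in the corresponding libraries labelled FTO. The groups did not overlap, and the step between them was small. The mean was 88.3 ± 1.20 CPM in Vector and 92.3 ± 1.32 CPM in the libraries labelled FTO (SD, n = 3), a fold change of 1.05 with a 95% confidence interval of 0.976 to 1.12. By the quasi-likelihood test of edgeR the log2 fold change was 0.06 with a standard error (SE) of 0.0468 and an adjusted p of 0.239. The upper end of the interval would allow 10.7 CPM of additional Fto over the Vector mean. The test rested on a mean of 1330 counts per library, and only 10.2% of the 12941 genes tested had a smaller log2 fold change in size. The count of the gene named in the label thus did not separate the groups by this test. By quantitative PCR and western blot, separate assays from these counts, the study reported raised FTO after transfection of its plasmid. In these libraries, the direction of each comparison that follows rests on the labels.

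Alkbh5, the other m6A demethylase, was higher in the libraries labelled FTO. It was measured at 67.5, 66.9 and 71.7 CPM in Vector and at 81.9, 73.3 and 83.2 CPM in the libraries labelled FTO, in replicate order. All 3 libraries labelled FTO were above all 3 Vector libraries. The means were 68.7 ± 2.61 and 79.5 ± 5.36 CPM (SD, n = 3), a 1.16-fold increase with an interval of 1.06 to 1.27 and a log2 fold change of 0.21 (SE 0.0594, edgeR adjusted p = 0.00547). In these bulk libraries, a change in the share of cells that express a gene and a change in RNA per cell cannot be told apart.

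**Figure D1:**
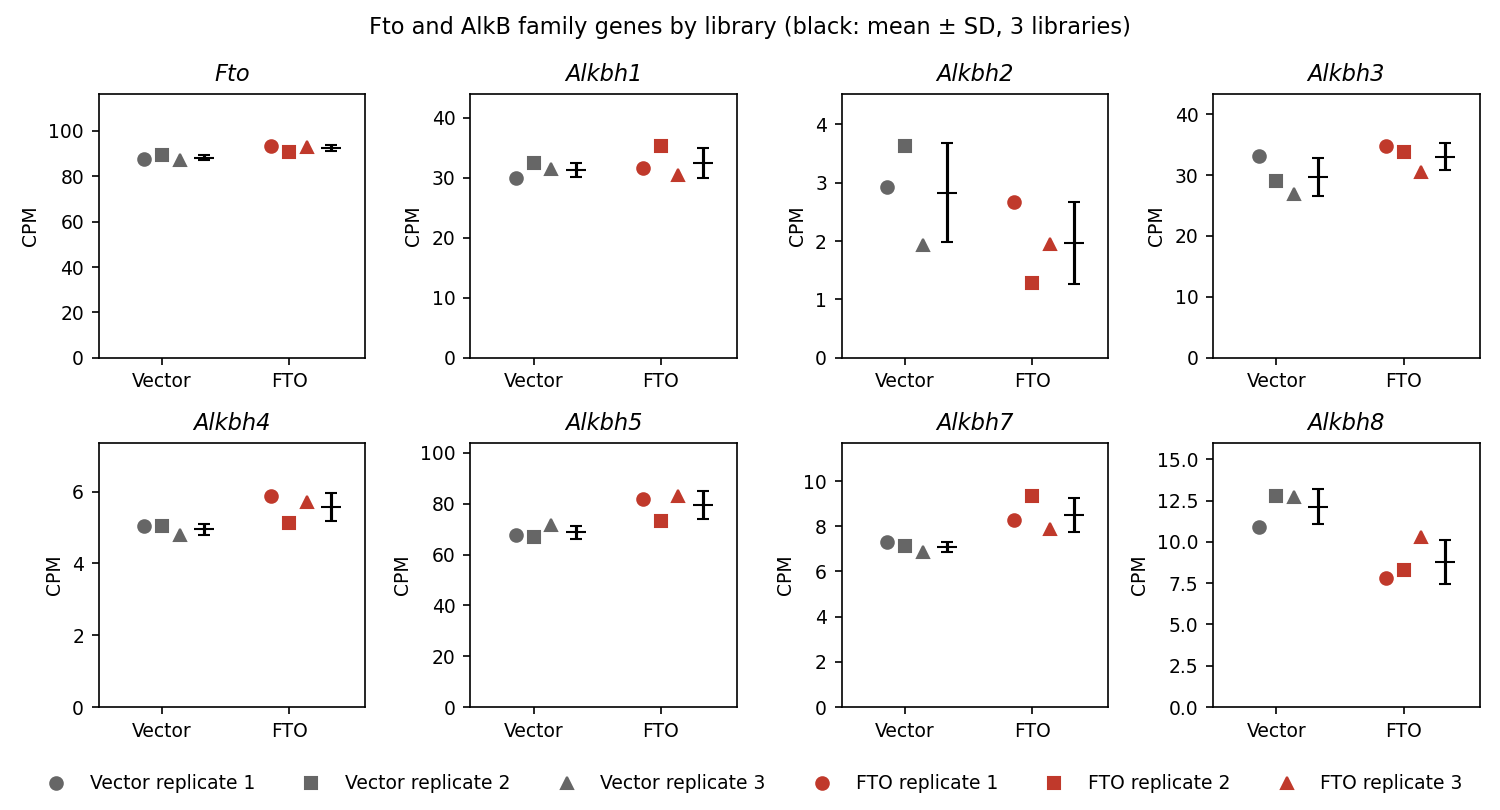
Expression (CPM, linear axis from 0, with its own range for each gene) of the 8 family members tested, with 1 symbol per library, Vector in grey and the libraries labelled FTO in red, and black bars for mean ± SD of 3 libraries. Fto differs by a small step between groups (88.3 against 92.3 CPM), Alkbh5 lies higher and Alkbh8 lower in every library labelled FTO, and the groups overlap for Alkbh1, Alkbh2 and Alkbh3.

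The members known for repair of alkylated DNA, Alkbh2 on double-stranded and Alkbh3 mainly on single-stranded DNA, did not pass the test. Alkbh2 had few reads, with 40, 54 and 28 counts in Vector and 38, 17 and 35 in the libraries labelled FTO. Its levels were 2.93, 3.62 and 1.94 CPM against 2.67, 1.28 and 1.95 CPM. The groups overlapped, and the spread within each was wide. The log2 fold change of -0.52 (SE 0.284) had the widest interval of the members, from 0.459 to 1.07 as a fold (edgeR adjusted p = 0.123). Counting error alone gives a coefficient of variation of 16.8% at this depth. Alkbh3 was measured at 33.1, 29.0 and 26.9 CPM in Vector and at 34.7, 33.8 and 30.5 CPM in the libraries labelled FTO. Vector replicate 1 lay within the range of the other group. Its log2 fold change was 0.15 (SE 0.0843, edgeR adjusted p = 0.123), with an interval of 0.981 to 1.26 in fold. Neither value was stable to the choice of libraries. Without Vector replicate 3 the Alkbh2 change was -0.732 with an edgeR adjusted p of 0.0424, while that of Alkbh3 reached an adjusted p of 0.0312 without Vector replicate 1 and of 0.0395 without replicate 3 of the libraries labelled FTO.

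Of the members that act on tRNA, Alkbh8 was lower in the libraries labelled FTO and Alkbh1 did not pass the test. Alkbh8 joins a methyltransferase and a hydroxylase in 1 protein and modifies the wobble uridine of tRNAs, including the tRNA that reads selenocysteine codons. It was measured at 10.9, 12.8 and 12.7 CPM in Vector and at 7.79, 8.31 and 10.3 CPM in the libraries labelled FTO. Every library labelled FTO was below every Vector library, with replicate 3 closest to them. The means of 12.1 ± 1.07 and 8.81 ± 1.34 CPM (SD, n = 3) gave a fold of 0.732 with an interval of 0.605 to 0.885, or a log2 fold change of -0.45 (SE 0.128, edgeR adjusted p = 0.00619). Alkbh1 removes methyl groups from tRNA and is needed for an oxidised cytosine in a mitochondrial tRNA. It was measured at 30.0, 32.4 and 31.4 CPM in Vector against 31.6, 35.2 and 30.4 CPM. The groups overlapped, and the log2 fold change of 0.05 (SE 0.0744, edgeR adjusted p = 0.602) had an interval of 0.925 to 1.15 in fold.

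The remaining members act on protein or have less settled substrates. Alkbh7, a mitochondrial protein linked to programmed necrosis after DNA alkylation, was measured at 7.32, 7.11 and 6.86 CPM in Vector and at 8.28, 9.36 and 7.87 CPM in the libraries labelled FTO. The groups did not overlap. Its log2 fold change of 0.26 (SE 0.125) had an edgeR adjusted p of 0.0864 and an interval of 0.991 to 1.44 in fold, so it did not pass. Alkbh4, which has been described as acting on a methylated lysine of actin, was measured at 5.05, 5.03 and 4.78 CPM in Vector and at 5.89, 5.14 and 5.70 CPM in the libraries labelled FTO. Here too the groups did not overlap, and the log2 fold change of 0.17 (SE 0.144, edgeR adjusted p = 0.301) did not pass, with an interval of 0.911 to 1.40 in fold. Alkbh6 had 1, 0 and 0 counts in Vector and 1, 0 and 0 in the libraries labelled FTO. All of these are under the floor of 3 counts, worth 0.168 to 0.227 CPM, so that no fold is given and expression was not detectable at this depth.

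Over the family, 2 of the 8 members tested passed an adjusted p of 0.05, which is 25.0%, beside 65.9% of all genes tested. One of these, Alkbh5, was higher (33.2% of all genes were called higher) and the other, Alkbh8, was lower (32.8%). The groups did not overlap for 5 of the 8, or 62.5%, beside 70.3% of all genes. None of the 8 members, a count of 0, met the threshold of the study, a change of at least 2-fold with an unadjusted p under 0.05, which 19.6% of genes did by the edgeR test. At an unadjusted p under 0.05 without the fold limit, Alkbh5 and Alkbh8 passed, 2 of 8 members beside 68.9% of all genes. Log2 fold changes of the members ran from -0.52 to 0.26, with a median of 0.11 and a median size of 0.19, beside 0.00 and 0.36 over all genes, and 37.7% of all genes changed by more than the member with the largest change. The summed level of the 9 members was 244 to 247 CPM in Vector and 257 to 266 CPM in the libraries labelled FTO.

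**Figure D2:**
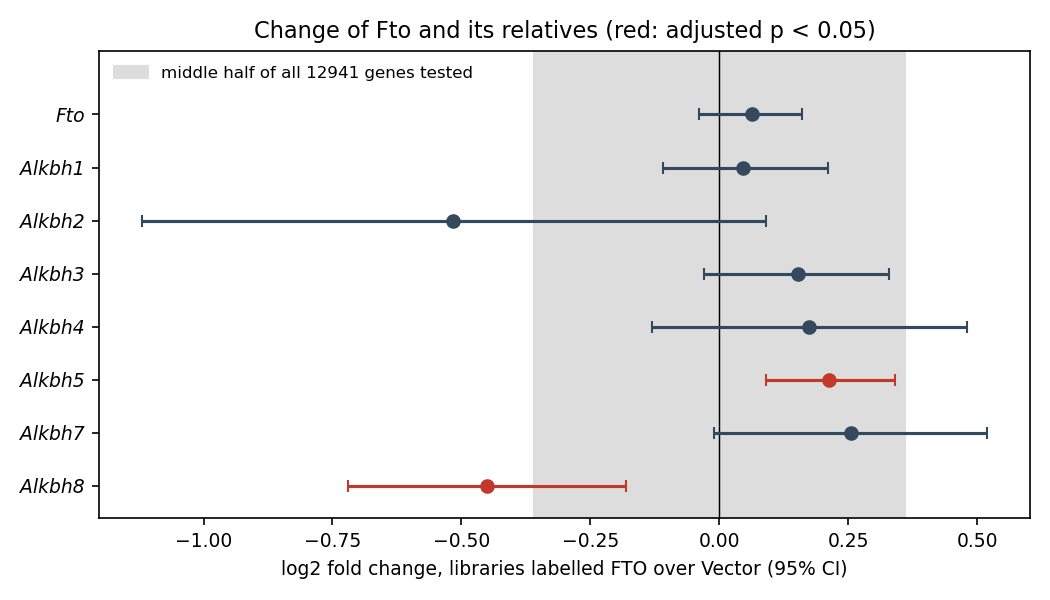
Log2 ratio of libraries labelled FTO to Vector for the 8 family members tested, with 95% confidence intervals from the edgeR fit (n = 3 libraries a group), and in grey the range between the quartiles of all 12941 genes tested, -0.36 to 0.36. Only the intervals of Alkbh5 and Alkbh8, in red, passed an adjusted p of 0.05, and the interval of Fto is the narrowest, around 0.06.

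Libraries held 13178952 to 17857999 counts, and scaling factors lay between 0.995 and 1.005. All 9 fibroblast markers were detected, with a summed level of 40100 to 40800 CPM in Vector and 19800 to 20800 CPM in the libraries labelled FTO (4 higher and 5 lower). Col1a1 was the largest part of this sum, at a mean of 25800 CPM in Vector and 8270 CPM in the libraries labelled FTO. Dcn went the other way, from 47.0 to 5610 CPM, so the sum does not stand for each marker. Markers of other cell types differed between the groups too. The 9 cardiomyocyte markers summed to 1680 to 1720 against 2630 to 2710 CPM (8 higher and 1 lower), the 8 macrophage markers to 600 to 620 against 122 to 136 CPM (all 8 lower), and the 7 endothelial markers to 24.5 to 25.0 against 53.4 to 55.9 CPM (4 of 5 tested higher). No marker was at 0 in every library, and C1qb and C1qc had 1 or 2 counts in each library labelled FTO. Their part in the results on Alkbh5, Alkbh8 and the related gene lists was not tested.

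To compare Fto with its relatives without any scaling of libraries, each relative's count was divided by the Fto count of the same library. Alkbh8 gave 0.124, 0.143 and 0.145 reads per Fto read in Vector and 0.0835, 0.0915 and 0.111 in the libraries labelled FTO. These ratios did not overlap, and their geometric mean in the libraries labelled FTO was 0.691 times that in Vector, a log2 difference of -0.53. For Alkbh5 the ratios were 0.768, 0.746 and 0.82 in Vector and 0.878, 0.808 and 0.896 in the libraries labelled FTO. They overlapped, with replicate 2 of the libraries labelled FTO below Vector replicate 3, and the log2 difference was 0.14. The Alkbh7 ratios were 0.0833, 0.0793 and 0.0784 against 0.0888, 0.103 and 0.0848, which did not overlap (log2 difference 0.19). Differences for the other relatives were -0.02 for Alkbh1, -0.60 for Alkbh2, 0.09 for Alkbh3 and 0.10 for Alkbh4. Single libraries weighed on several of these: without replicate 2 of the libraries labelled FTO the difference was 0.111 for Alkbh7 and -0.339 for Alkbh2, and for Alkbh3 it was 0.179 without Vector replicate 1, 0.034 without Vector replicate 3 and 0.154 without replicate 3 of the libraries labelled FTO. The exact two-sided permutation test, which cannot go below 0.1 with 3 libraries against 3, gave that smallest p for Alkbh7 and Alkbh8 and 0.2 for Alkbh5, and each of these was 0.28 after Benjamini-Hochberg adjustment over the 7 relatives. A difference in change between Fto and any relative was therefore not shown by this test. Levels of different members were not ranked, because their transcript lengths were not analysed here.

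**Figure D3:**
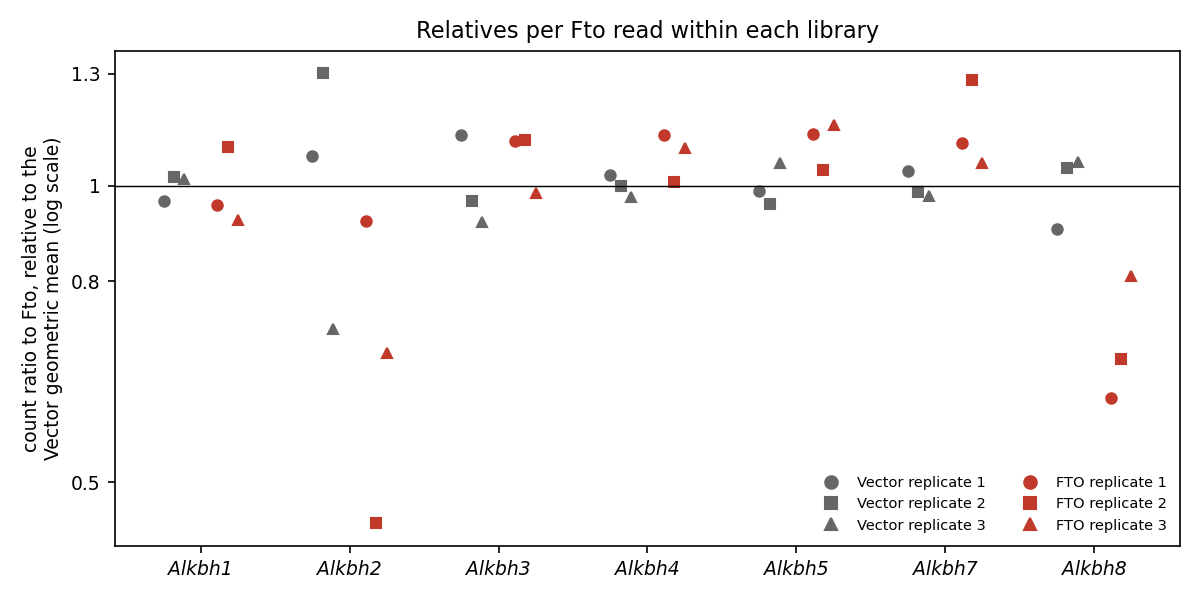
Count of each relative divided by the count of Fto in the same library, drawn relative to the geometric mean of the 3 Vector libraries (log axis), with grey for Vector, red for the libraries labelled FTO and 1 symbol shape per replicate number. All 3 red points of Alkbh8 lie below its grey points and those of Alkbh7 above, while for Alkbh1, Alkbh2, Alkbh3, Alkbh4 and Alkbh5 the colours overlap.

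Genes beside the members on the chromosome were examined next, by their order on build GRCr8. Fto stands head to head with Rpgrip1l, a gene of the ciliary transition zone, on the opposite strand, and their promoter windows share 187 bases. Rpgrip1l was measured at 16.8, 18.9 and 18.4 CPM in Vector and at 17.3, 16.9 and 17.1 CPM in the libraries labelled FTO. The groups overlapped, and its log2 fold change of -0.07 (SE 0.0863, edgeR adjusted p = 0.469) was, like that of Fto, not past the test. Per Fto read, Rpgrip1l gave 0.191, 0.21 and 0.21 in Vector and 0.185, 0.186 and 0.185 in the libraries labelled FTO, a log2 difference of -0.13 without overlap. Irx3, the homeobox gene on the other side of Fto, had 10, 18 and 8 counts in Vector and 41, 35 and 66 in the libraries labelled FTO. All 3 libraries labelled FTO were higher, from 0.831 ± 0.338 to 3.07 ± 0.547 CPM (SD, n = 3), with a log2 fold change of 1.88 (SE 0.294, edgeR adjusted p = 4.44e-05). Irx5, a further homeobox gene of this cluster, rose by 0.69 on the log2 scale, the scale of each rise or fall given from here on (edgeR adjusted p = 0.0171), and Irx6 had 0 counts in all 6 libraries. On the Rpgrip1l side, Chd9, a chromatin remodeller, fell by 0.96 (edgeR adjusted p = 6.74e-07), Aktip fell by 0.59 and Rbl2, a retinoblastoma family gene, rose by 0.31. In all, 3 of 6 tested genes around Fto were higher and 2 lower (83.3% called, beside 65.9% of all genes).

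Alkbh1 and Alkbh4 also stand head to head with a neighbour. Slirp, which encodes an RNA-binding protein of mitochondria, shares 75 bases of promoter window with Alkbh1, and the annotated genes overlap. It was measured at 4.39, 3.89 and 4.09 CPM in Vector and at 6.10, 6.27 and 6.31 CPM in the libraries labelled FTO, with no overlap and a log2 fold change of 0.60 (SE 0.145, edgeR adjusted p = 0.00203). Per Alkbh1 read, the log2 difference of Slirp was 0.55. Lrwd1, which binds the origin recognition complex, shares 187 bases with Alkbh4 and had a log2 fold change of -0.19 (edgeR adjusted p = 0.0667), or -0.37 per Alkbh4 read. For these 2 pairs and for Rpgrip1l and Fto, the ratio gave the smallest p that the exact permutation test allows, 0.1, also after adjustment over the 3 pairs. Alkbh1 shares bases with Slirp, Alkbh7 with Pspn and Alkbh5 with Rpl17l5, and whether strand was used in counting is not given in the sources used here, so their reads may not be fully separated. Both neighbours of Alkbh2 passed, the uracil glycosylase gene Ung at 0.28 (edgeR adjusted p = 0.0202) and Usp30 at -0.25 (edgeR adjusted p = 0.0201), in opposite directions. Both neighbours of Alkbh1, Slirp and Sptlc2 (0.15), passed as well and were higher. So did both neighbours of Alkbh3, C3h11orf96 (0.57) and Hsd17b12 (0.17). Orai2 beside Alkbh4 and Clpp beside Alkbh7 were higher and Myo15a beside Alkbh5 lower, while Pspn and Cwf19l2 did not pass. Of all genes tested, 65.9% passed. Beside Alkbh6, Clip3 had between 1 and 4 counts per library and Syne4 at most 1.

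Genes whose profiles lay nearest that of Fto were found by the root-mean-square difference of centred log2 CPM over the 6 libraries, among 10041 genes. They were Sfpq (0.0118), which encodes an RNA-binding protein of nuclear paraspeckles, Hsdl2 (0.0124), a peroxisomal dehydrogenase, and Dnajb11 (0.0152), a chaperone of the endoplasmic reticulum. Sfpq was measured at 187 ± 0.843 CPM in Vector and 197 ± 3.98 CPM in the libraries labelled FTO (SD, n = 3). Fto was nearly level over the libraries, so this measure picks genes that also changed little and does not show that they vary with Fto. The log2 fold changes were 0.07 for Sfpq, 0.06 for Hsdl2 and 0.07 for Dnajb11, and none passed the edgeR test. The genes nearest Alkbh5 were Myom1 (0.0234), a sarcomere protein, Prmt1 (0.0251), an arginine methyltransferase, and Trip12 (0.0269), a ubiquitin ligase. With 6 libraries such likeness is a description.

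The enzymes that write adenosine methylation on mRNA, which Fto and Alkbh5 oppose, moved in both directions. Of 11 genes tested, 2 were higher and 3 lower (45.5% called, beside 65.9% of all genes), with a median log2 fold change of -0.16. Mettl14, the partner of the catalytic subunit Mettl3, was measured at 38.5, 36.5 and 41.6 CPM in Vector and at 34.1, 31.0 and 32.5 CPM in the libraries labelled FTO. All 3 libraries labelled FTO were lower, and the log2 fold change was -0.26 (SE 0.0711, edgeR adjusted p = 0.00522). Rbm15b, an adaptor of the complex, fell by 0.24 (edgeR adjusted p = 0.0222), and Virma, its scaffold, fell by 0.21 (edgeR adjusted p = 0.00273). Mettl3 itself had a log2 fold change of -0.02 (edgeR adjusted p = 0.802). Wtap was at -0.03 (edgeR adjusted p = 0.706) and Zc3h13 at 0.03 (edgeR adjusted p = 0.686). They are among the 6 genes of this list that did not pass. The E3 ligase subunit Cbll1 and the cap methyltransferase Pcif1, whose product m6Am is a substrate of Fto, each rose by 0.26 (edgeR adjusted p = 0.00386 and 0.00492).

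Other dioxygenases that depend on 2-oxoglutarate were set beside the AlkB members. The median size of the log2 fold change was 1.21 over 3 TET genes, 0.56 over 4 HIF hydroxylases and 0.40 over 21 JmjC genes, beside 0.19 over the AlkB members. The 3 TET genes, whose proteins oxidise 5-methylcytosine in DNA, were all called lower, as were 32.8% of all genes tested. Tet3 was measured at 31.8, 39.1 and 34.2 CPM in Vector and at 16.1, 11.3 and 17.7 CPM in the libraries labelled FTO, a log2 fold change of -1.21 (SE 0.126, edgeR adjusted p = 6.30e-07). Tet2 fell by 0.51 (edgeR adjusted p = 0.00153). Tet1 was at 4.54, 3.76 and 3.32 CPM in Vector and at 1.33, 0.982 and 1.06 CPM in the libraries labelled FTO, a log2 fold change of -1.77 (SE 0.236, edgeR adjusted p = 8.87e-06). For each TET gene the groups stood apart in every library.

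Of the 4 hydroxylases of the hypoxia-inducible factor HIF, 3 were higher and 0 were lower (75.0% called, beside 65.9% of all genes). Egln3, a prolyl hydroxylase that is itself a HIF target, was measured at 12.5, 12.9 and 12.9 CPM in Vector and at 85.3, 93.0 and 73.9 CPM in the libraries labelled FTO, a log2 fold change of 2.71 (SE 0.0893, edgeR adjusted p = 5.10e-13). Egln1 rose by 0.64 (edgeR adjusted p = 4.19e-07) and Egln2 by 0.48 (edgeR adjusted p = 1.32e-05). Hif1an, the asparaginyl hydroxylase, had a log2 fold change of -0.19 (edgeR adjusted p = 0.333) and did not pass.

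Most JmjC dioxygenases demethylate histone lysines. Of 21 tested, 5 were higher and 8 lower (61.9% called, beside 65.9% of all genes), with a median of 0.00. The largest changes were in Kdm3a (0.64) and Jmjd6 (0.54) and, downward, in Kdm6b (-0.90) and Jmjd1c (-0.70). Genes that make or use the cosubstrate 2-oxoglutarate were split evenly. Of 14 tested, 5 were higher and 5 lower (71.4% called, beside 65.9% of all genes), with a median of -0.05. The lipoamide dehydrogenase gene Dld had a log2 fold change of 0.40 and D2hgdh, which turns 2-hydroxyglutarate back into 2-oxoglutarate, of 0.33. Psat1, a transaminase of serine synthesis that yields 2-oxoglutarate, fell by 1.36. Each gene named here passed the edgeR test without overlap between groups.

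**Figure D4:**
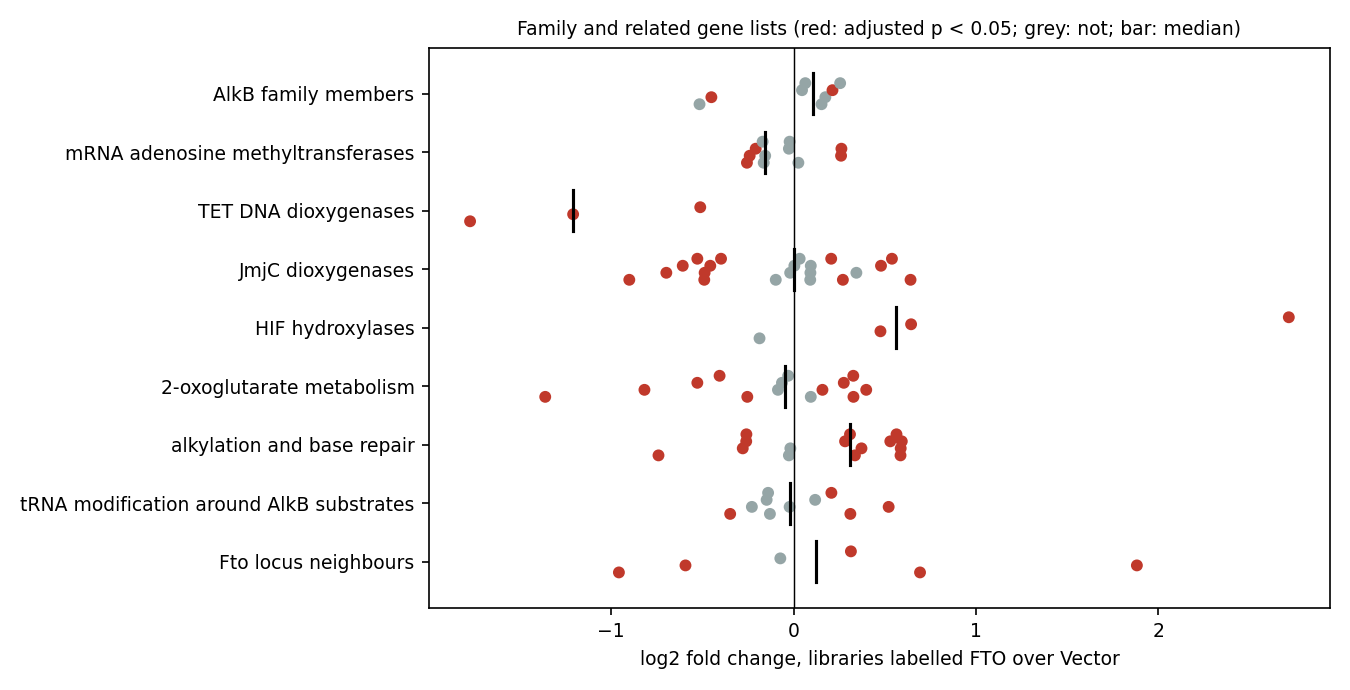
Log2 ratio of libraries labelled FTO to Vector for each tested gene of the family and of 8 related lists, red where the edgeR adjusted p was under 0.05 and grey where it was not, with a black bar at each list's median. The AlkB members lie between -0.52 and 0.26, the 3 TET genes all lie below 0, and Egln3 stands at 2.71; Trmt9b, at 1 count in each Vector library, is counted in its median but not drawn.

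Genes that share a pathway with single AlkB members were described in the same way. Alkylation and base repair, the setting of Alkbh2 and Alkbh3, was covered by 15 genes. Of these, 9 were higher and 4 lower (86.7% called, beside 65.9% of all genes), with a median of 0.31. The 3 genes of the ASCC helicase complex on this list, whose proteins unwind DNA for Alkbh3, rose, Ascc3 by 0.59 (edgeR adjusted p = 9.15e-07), Ascc1 by 0.59 (edgeR adjusted p = 3.04e-06) and Ascc2 by 0.53 (edgeR adjusted p = 3.15e-06). Ascc3 was measured at 77.3, 85.2 and 76.5 CPM in Vector and at 126, 109 and 126 CPM in the libraries labelled FTO, groups that did not overlap, whereas those of Alkbh3 did. The deubiquitinase Usp9x, which stabilises Alkbh2 and Alkbh3 through an OTUD4 complex, fell by 0.74, and DNA polymerase beta, Polb, fell by 0.28.

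Around Alkbh8 and Alkbh1, 11 tRNA modification genes were tested. With 4 higher and 1 lower, 45.5% were called, beside 65.9% of all genes, and the median was -0.02. Elongator subunits start the wobble uridine modification that Alkbh8 completes. Of these, Elp6 rose by 0.52 (edgeR adjusted p = 0.000681) and Elp3, the catalytic subunit, by 0.21 (edgeR adjusted p = 0.00377). Trmt6, part of the enzyme that writes the 1-methyladenosine which Alkbh1 removes from tRNA, rose by 0.31 (edgeR adjusted p = 0.000832). Trmt9b, a methyltransferase related to that of Alkbh8, had 1 count in each Vector library and 30, 27 and 33 counts in the libraries labelled FTO.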

How the data were processed

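The authors deposited raw read counts, 1 whole number per gene symbol, in 1 file per library. Total RNA was sequenced on an Illumina instrument after library construction with a commercial kit. The submitters' processing notes name Trimmomatic and genome build rn6. Aligner, counter, annotation and use of strand are not given in the sources used here. Groups were taken from genotype labels and replicate numbers from titles. Genes were kept with filterByExpr (minimum count 10), scaled by TMM and compared by the two-sided quasi-likelihood test of edgeR 4.0.16 in R 4.3.3, without covariates, adjusted by Benjamini-Hochberg over the 12941 genes tested. The SE was derived from the F statistic and the fitted fold change. Ratios were compared by exact permutation in scipy 1.17.1. The procedure was tested on simulated counts. Alternatives were DESeq2 1.42.0, limma-voom (limma 3.58.1), other size factors, filters, a replicate block and leaving out each library. Symbols were matched to RefSeq through its synonyms.

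The members and lists were chosen with earlier results of these data known. Named genes were all members, the 2 largest increases and decreases of each list among called genes without overlap averaging at least 50 counts, all genes of lists of 7 or fewer, and the 3 genes most like Fto and Alkbh5 averaging at least 100 counts. Further genes were picked once their values were known, among them Mettl3, Wtap, Zc3h13, Virma, Ascc2, Elp3, Trmt9b and the neighbours of members other than Fto. Elp4, Trmt61a, Idh3b and Ogdh are not analysed here. Some genes that the rule selects are not reported here. Counting floors and intervals cover counting error and the spread between libraries only, since no molecular identifiers were used.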

Additional observations from a re-analysis of the deposited data

How the results depend on the processing

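Fto was not past the threshold under any of its 13 alternatives (log2 fold change 0.051 to 0.078, adjusted p 0.182 to 0.45), while Alkbh5 (0.174 to 0.268, adjusted p 0.000225 to 0.0355) and Alkbh8 (-0.598 to -0.375, adjusted p 0.000621 to 0.0341) passed under all of theirs. Between 2 and 3 members passed. Leaving out single libraries moved others: Alkbh1 ran from -0.013 to 0.089, turning direction without FTO replicate 2 (-0.013); Alkbh2 ran from -0.777 to -0.294, and passed without Vector replicate 3 (-0.732); Alkbh3 ran from 0.085 to 0.234, and passed without Vector replicate 1 (0.234) or FTO replicate 3 (0.208). The Alkbh1 ratio to Fto ran from -0.088 to 0.034 and turned direction without FTO replicate 1 (0.008) or 3 (0.034). The ratios of the other relatives kept their sign, over -0.847 to -0.339 for Alkbh2, 0.034 to 0.179 for Alkbh3, 0.071 to 0.151 for Alkbh4, 0.115 to 0.19 for Alkbh5, 0.111 to 0.252 for Alkbh7 and -0.649 to -0.442 for Alkbh8. The cause was not tested. Over all genes the count called ran from 7795 by DESeq2 to 9009 without a filter.

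Libraries of the same replicate number did not deviate together (correlations 0.00284, -0.0693 and 0.0207), so the numbers were not taken as pairs. With the replicate block, Fto was at 0.064 (adjusted p 0.302), Alkbh5 at 0.209 (0.00549) and Alkbh8 at -0.459 (0.00398), 8399 genes were called in place of 8531, and no call of a member or count of a list moved past these limits. The planned order of levels by transcript length could not be run, since the tables used here hold no transcript lengths. Depth limits Alkbh2, at 35.3 counts per library, and Alkbh6, under the floor.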
